A study of Mus musculus with 12 samples.

Results

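Gene by gene, follicular helper T (Tfh) cells taken out of MC38 tumours were set against Tfh cells made in culture from OT-II mice. The Tfh_tumour group holds 3 libraries of CD4+ CXCR5+ PD1+ cells taken from tumours of MC38, a mouse colon carcinoma line, that had grown in mice. The Tfh_OTII group holds 3 libraries of naive T cells from spleen and lymph nodes of OT-II mice, which carry a transgenic T cell receptor for an ovalbumin peptide. Those cells were kept on plates coated for CD3 and CD28 with IL-6 and IL-21, both at 50 ng/ml, and with antibodies against IL-4, IFNγ and TGFβ, each at 10 µg/ml, and their titles give 48 h. A further 6 of the 12 libraries of the study entered the fit: 3 of the same culture started from wild-type cells (Tfh_WT) and 3 of a Th1 culture (Th1_WT), which had IL-12 at 10 ng/ml and IL-4 blocked. Titles of both wild-type cultures give 24 h, whereas the treatment protocol gives 48 h for each kind of culture. The labels describe all mice as C57BL/6J and 7 weeks old, and RNA came from 300000 cells a library. The growth protocol names wild-type mice as the source of naive cells and does not mention OT-II.

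Levels are TPM, a length-corrected share of all transcripts, divided by a median-of-ratios size factor over the 17585 genes above 0 in all 12 libraries. Of the 35492 gene symbols measured, 20235 had a mean of 1 scaled TPM or more in Tfh_tumour or Tfh_OTII and lay outside chromosome Y, and these were tested. A gene was called at an adjusted p under 0.05 (limma on log2 of scaled TPM plus 1, with Benjamini-Hochberg adjustment over the 20235 genes). Fold changes are differences on that log2 scale, Tfh_tumour minus Tfh_OTII, given with the standard error (such as the values with ± in parentheses after a gene's levels), and they understate changes of genes with low values. The labels do not say that the libraries of a group came from separate animals or cultures, so p-values measure a library-to-library spread that may be technical. The files hold no counts, so sequencing depth is unknown and the number of libraries limits the precision.

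Tfh cells are CD4+ T cells that help B cells in the follicles of lymphoid organs. They are set by the transcription factor BCL6, find the follicle through the chemokine receptor CXCR5, and act on B cells through IL-21, CD40 ligand and ICOS. A related subset, follicular regulatory T cells, carries FOXP3 as well and restrains that help. In tumours, CD4+ T cells also meet interferons and myeloid cells, which are background to the gene groups below. Culture with IL-6 and IL-21 on plates that engage CD3 and CD28 drives naive cells into division within days.

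Of the 20235 genes, 3565 (17.6%) were called: 1683 (8.32%) were higher and 1882 (9.3%) lower in Tfh_tumour than in Tfh_OTII. Each count of list members called in this comparison stands beside these shares. In 7592 genes (37.5%) the 3 Tfh_tumour libraries did not overlap the 3 Tfh_OTII libraries. Each statement below that groups did not overlap stands beside that share, and genes named for the largest changes were picked for it. With size factors from genes of 10 TPM or more in all libraries, 3928 genes were called, of which 2487 were higher and 1441 lower, because that scaling moved the median over all genes to 0.23, against 0.00 here. Changes below are relative to the median over all genes. Without Tfh_OTII replicate 3 the count of calls was 1719, and without Tfh_OTII replicate 2 it was 2218. On the same genes, 521 (2.57%) were called for Tfh_tumour against Tfh_WT, and 395 (1.95%) for Tfh_OTII against Tfh_WT. The Th1_WT libraries stood apart: their 10 most abundant gene models took 50.7% to 66.5% of TPM, against 18.4% to 30.7% in Tfh_tumour and 14.4% to 15.6% in Tfh_OTII libraries. Without Th1_WT in the fit, 4956 genes were called. The 3 contrasts share libraries, so their values are set side by side and not combined.

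**Figure D1:**
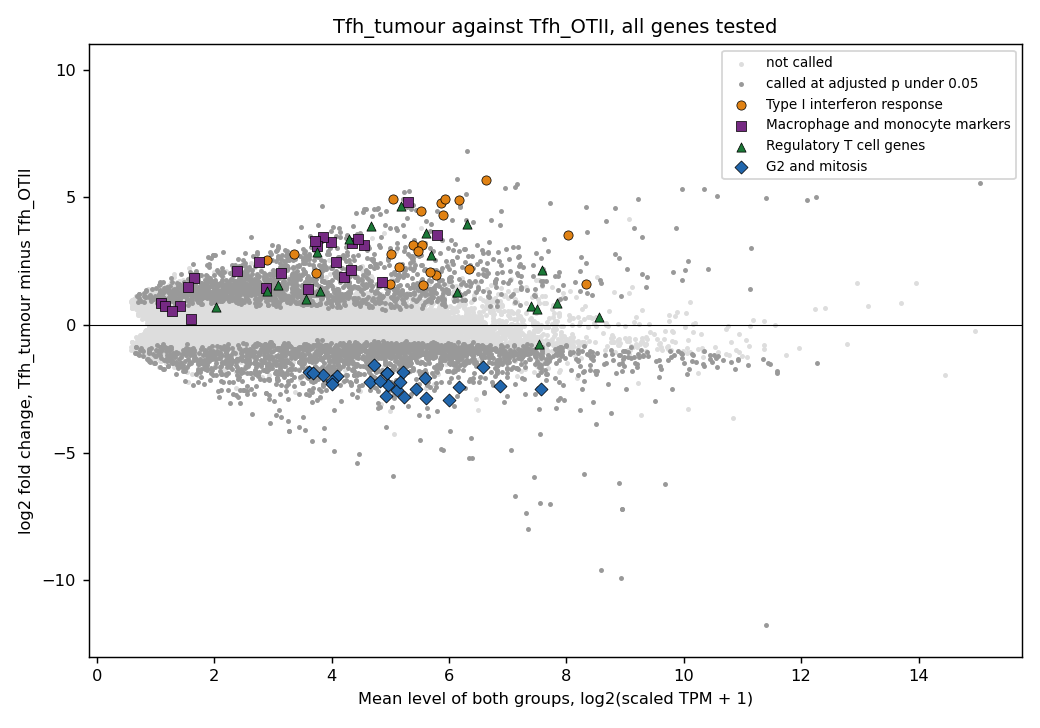
Each point is 1 of the 20235 genes, with its mean level over both groups on the x axis and its log2 fold change, Tfh_tumour minus Tfh_OTII, on the y axis. Type I interferon genes, macrophage markers and most regulatory T cell genes lie above 0, and all 25 mitosis genes lie below 0.

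T cell receptor segments separated the OT-II cells from the other libraries. The Trav14 family, which holds the alpha chain variable segment of the OT-II receptor, took 10.5%, 10.4% and 9.95% of alpha variable segment TPM in Tfh_tumour libraries, against 83.6%, 87.0% and 87.5% in Tfh_OTII libraries. The Trbv12 family, which holds the beta chain segment, took 3.25%, 3.86% and 5.88% of beta variable segment TPM in Tfh_tumour libraries, against 35.9%, 34.7% and 35.8% in Tfh_OTII libraries. Cd4 had 105, 122 and 99.9 TPM in Tfh_tumour libraries, against 98.8, 127 and 151 in Tfh_OTII libraries, and the groups overlapped. Cd8a was at 5.13, 3.24 and 4.07 TPM in Tfh_tumour libraries, against 4.11, 2.91 and 2.02 in Tfh_OTII libraries, with overlapping groups as well. The 18 T cell identity genes (CD3 chains, Lck, Zap70 and the like) summed to 2989, 3919.7 and 2674 TPM in Tfh_tumour libraries, against 3995, 5276 and 5964 in Tfh_OTII libraries, and 2 of the 18 were called lower (1 without Tfh_tumour replicate 3, Tfh_OTII replicate 2 or Tfh_OTII replicate 3, up to 6 with other scalings or sample sets, and 1 higher in addition with size factors from genes of 10 TPM or more). These 2 are 11.1% of the list, a share near the 9.3% called lower over all genes. One of the 2 was Trac, the receptor alpha constant gene, at 391, 601 and 357 TPM in Tfh_tumour libraries, against 1327, 1761 and 1925 in Tfh_OTII libraries. Its log2 fold change was -1.91 ± 0.31 (limma adjusted p = 0.0014). Tfh_WT held 334, 217 and 257 TPM of Trac, below Tfh_OTII as well. Tfh_OTII minus Tfh_WT was 2.63 (limma adjusted p = 0.0017), and Tfh_tumour minus Tfh_WT was 0.72 (limma adjusted p = 0.29).

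Markers of other cells were measured as well. The 25 macrophage and monocyte markers summed to 226, 1239 and 374 TPM in Tfh_tumour replicates 1 to 3, against 72.0, 67.0 and 41.3 in Tfh_OTII replicates 1 to 3. Tfh_tumour replicate 2 was the highest by a wide margin, and no Tfh_tumour library overlapped the Tfh_OTII range. Of the 25 markers 17 were called higher and none lower, and no marker of the list was at 0 in all libraries of either group. Lyz2, the lysozyme of macrophages and neutrophils, had 29.7, 218 and 61.9 TPM in Tfh_tumour libraries, against 7.34, 7.84 and 2.92 in Tfh_OTII libraries (3.51 ± 0.58, limma adjusted p = 0.0017). Fcer1g, the Fc receptor gamma chain of myeloid cells, had 19.7, 172 and 37.3 TPM in Tfh_tumour libraries, against 0.729, 0.789 and 0.937 in Tfh_OTII libraries (4.83 ± 0.65, limma adjusted p = 0.00047). Both followed the order of the summed list, with Tfh_tumour replicate 2 on top and replicate 1 at the bottom of the 3 tumour libraries. The same order held for 46 of the 59 genes named here that were called higher. Most of the 59 were named for large increases, and some are markers of the summed list, so this count is not a test. Among the 46 were Foxp3, Ikzf2, Il1r2, Il10, Maf, Prdm1, Bcl6, Tbx21, Il7r, Hopx, Zeb2, Rora, Penk, Ccr8, Cxcr6, Cxcr4 and Ccr2. The order held as well for 459 of the 1229 protein-coding genes with standard names that were called higher. It held for 215 of the 1459 such genes called lower. Both sets were called on these same tumour levels, and the share over all genes tested was not counted. Cd68, a lysosomal protein of macrophages, gave 3.13 ± 0.55, Clec4n, a myeloid lectin, 3.35 ± 0.52, and Csf1r, the receptor that defines the lineage, 2.11 ± 0.46 at 2.19, 15.4 and 5.85 TPM in Tfh_tumour libraries, against 1.12, 0.393 and 0.495 in Tfh_OTII libraries. C1qa, a complement chain of macrophages chosen after its values were seen, had 0.573, 4.29 and 0.801 TPM in Tfh_tumour libraries, against 0.22, 0.159 and 0.757 in Tfh_OTII libraries, and was not called. In bulk RNA, fewer cells of a type and less RNA per cell cannot be told apart.

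The 18 dendritic cell and MHC class II genes summed to 201, 732 and 294 TPM in Tfh_tumour libraries, against 69.6, 66.6 and 60.4 in Tfh_OTII libraries. Of these 18 genes 8 were called higher and 1 lower, beside 8.32% and 9.3% over all genes. The 16 neutrophil and mast cell markers summed to 27.2, 365 and 85.9 TPM in Tfh_tumour libraries, against 49.0, 24.8 and 23.5 in Tfh_OTII libraries, so the groups overlapped. None of the 10 tested was called by limma (2 had an unadjusted p under 0.05), and 3 were called higher without Tfh_tumour replicate 1. Among them S100a9, a neutrophil calcium-binding protein chosen after its values were seen, was at 0.344, 211 and 27.8 TPM in Tfh_tumour libraries, against 2.31, 2.93 and 3.07 in Tfh_OTII libraries. The 16 tumour epithelial markers summed to 12.2, 28.3 and 19.7 TPM in Tfh_tumour libraries, against 29.9, 20.8 and 23.5 in Tfh_OTII libraries, and none of the 7 tested was called by limma (2 had an unadjusted p under 0.05). The smallest p that an exact two-sided permutation test of 3 against 3 can give is 0.1, so these sums carry no test that could pass 0.05.

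**Figure D2:**
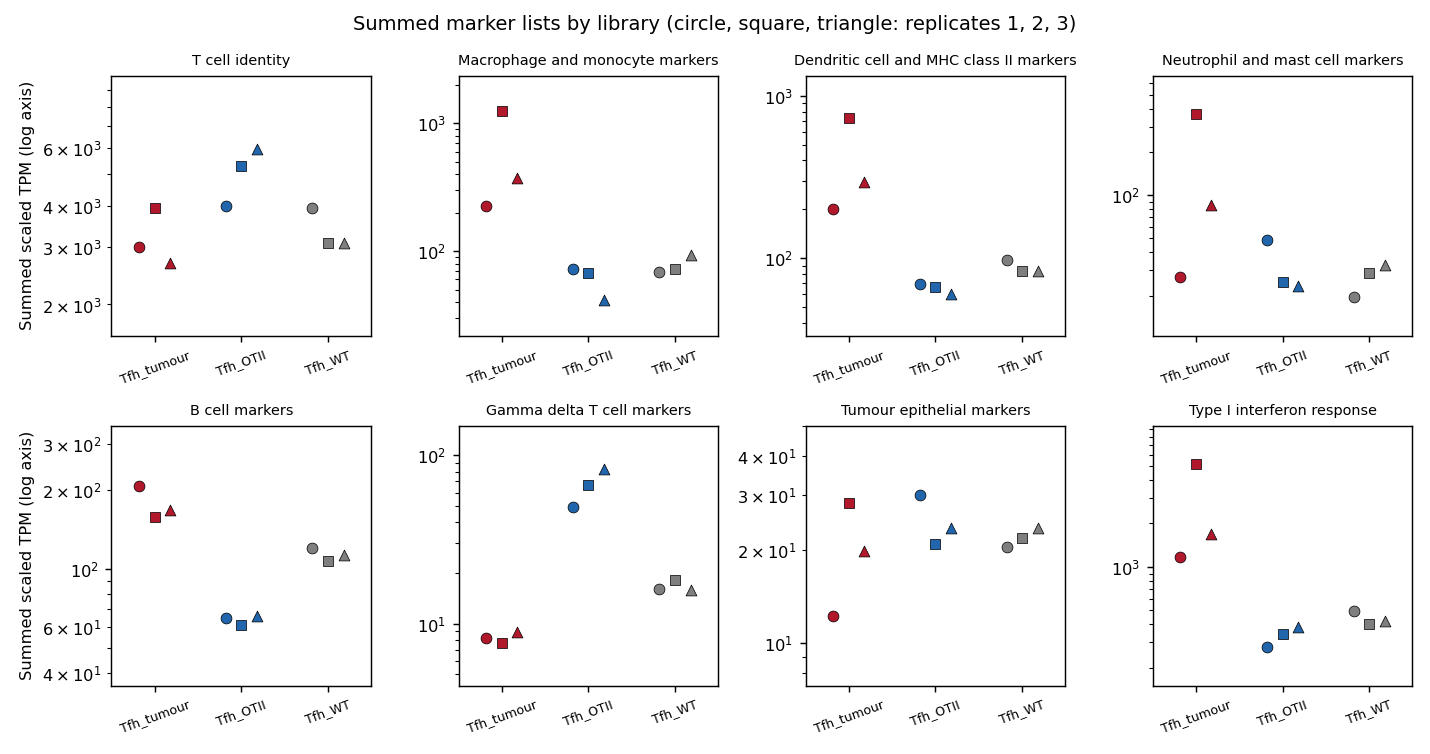
Each point is the summed scaled TPM of a marker list in 1 library, on a log axis, for Tfh_tumour, Tfh_OTII and Tfh_WT. Macrophage markers and type I interferon genes are highest in Tfh_tumour replicate 2 (the square), and gamma delta T cell markers are highest in Tfh_OTII.

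Genes of the regulatory T cell programme were higher in Tfh_tumour libraries. Of 19 genes tested, 13 were called higher and 0 lower, with a median log2 fold change of 1.31, against 0.00 over all genes and the 8.32% called higher overall. Foxp3, the factor that defines regulatory T cells (chromosome X, 7573644 to 7595245, GRCm38), had 47.1, 103 and 56.2 TPM in Tfh_tumour libraries, against 1.52, 1.74 and 1.57 in Tfh_OTII libraries. The lowest Tfh_tumour library thus stood far above the highest Tfh_OTII library, and the Tfh_tumour mean was 42.7 times the Tfh_OTII mean. Its log2 fold change was 4.66 ± 0.35 (limma adjusted p = 1.1e-05). Ikzf2, which encodes Helios, had 107, 224 and 114 TPM in Tfh_tumour libraries, against 7.17, 8.19 and 8.86 in Tfh_OTII libraries (3.96 ± 0.37). Nt5e, which encodes the adenosine-forming enzyme CD73, had 34.0, 38.9 and 31.9 TPM in Tfh_tumour libraries, against 2.72, 2.69 and 2.02 in Tfh_OTII libraries. The 3 tumour libraries lay within 1.22 times of each other for Nt5e, and its fold change was 3.37 ± 0.28. Il1r2, a decoy receptor for IL-1, had 40.3, 175 and 56.3 TPM in Tfh_tumour libraries, against 6.88, 4.89 and 4.06 in Tfh_OTII libraries (3.60 ± 0.44). None of the 4 genes overlapped between the groups, which holds for 37.5% of all genes. Foxp3, Ikzf2 and Il1r2 stood in the order of the macrophage marker sum among the tumour libraries, and Nt5e did not. Fgl2, a secreted protein of regulatory T cells and macrophages, ran with the macrophage markers among the tumour libraries, at 5.08, 114 and 25.1 TPM, against 0.856, 0.844 and 0.717 in Tfh_OTII libraries, and the part of those cells was not tested. Without Tfh_tumour replicate 2, 11 of the 19 were called higher and the median was 1.09.

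The wild-type culture lay between both groups for several of these genes. Foxp3 was at 26.1, 11.3 and 24.4 TPM in Tfh_WT, which gave 1.70 for Tfh_tumour minus Tfh_WT (limma adjusted p = 0.023) and -2.96 for Tfh_OTII minus Tfh_WT (limma adjusted p = 0.0017). For Ikzf2 the Tfh_WT libraries held 48.3, 22.2 and 48.2 TPM, and for Nt5e they held 19.0, 12.7 and 17.5 TPM. Over the 19 genes, 5 were called higher in Tfh_tumour than in Tfh_WT, where 1.31% of all genes were called higher and 1.27% lower. Likewise 6 were called lower in Tfh_OTII than in Tfh_WT, where 1.38% of all genes were called lower and 0.573% higher. Il10, the inhibitory cytokine, showed the same order, at 19.6, 105 and 30.8 TPM in Tfh_tumour libraries, 0.68, 1.23 and 0.44 in Tfh_OTII libraries and 12.6, 8.27 and 17.2 in Tfh_WT libraries (4.55 ± 0.50 for Tfh_tumour minus Tfh_OTII, limma adjusted p = 0.00014).

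**Figure D3:**
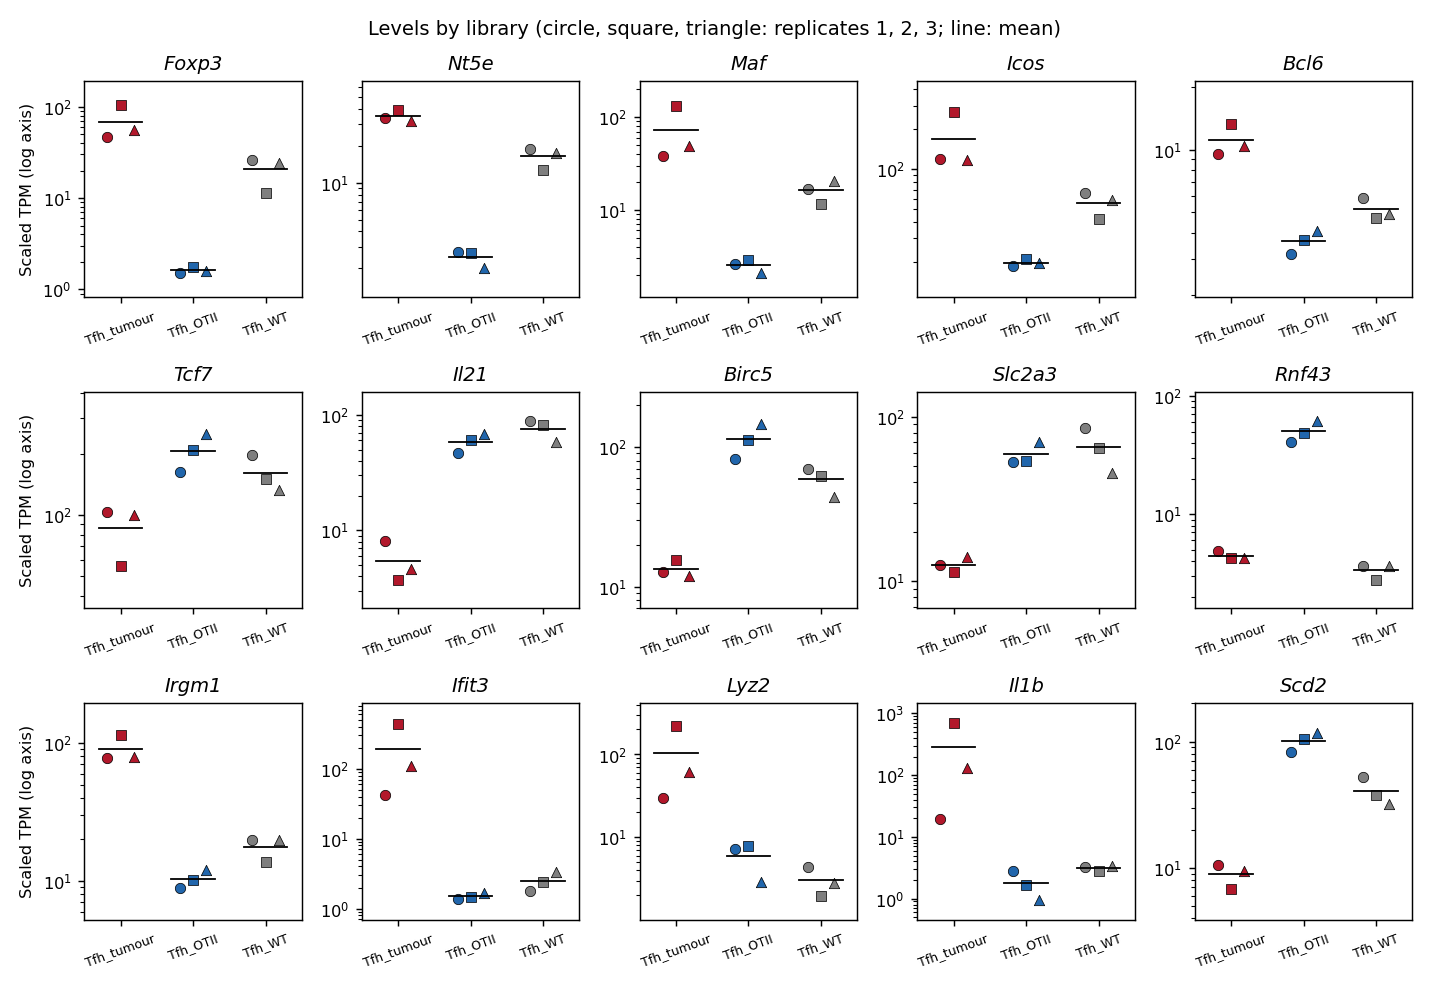
Scaled TPM of 15 genes in each library of Tfh_tumour, Tfh_OTII and Tfh_WT, on log axes, with a line at each group mean. In all 15, each a called gene, the Tfh_tumour libraries do not overlap the Tfh_OTII libraries, which holds for 37.5% of all genes tested. This was required only of the genes picked for the largest changes, here Ifit3, Il1b, Il21, Birc5, Rnf43 and Scd2. Ifit3, Lyz2 and Il1b spread most among the 3 Tfh_tumour libraries.

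The transcription factors of follicular T cells moved in both directions: of 17 tested, 5 were called higher and 4 lower in Tfh_tumour, and 8 higher and 3 lower with size factors from genes of 10 TPM or more. Bcl6, which sets the follicular fate, had 9.57, 13.3 and 10.4 TPM in Tfh_tumour libraries, against 3.16, 3.67 and 4.09 in Tfh_OTII libraries (1.37 ± 0.22, limma adjusted p = 0.0013). Maf, which promotes IL-10 and IL-21 production in T cells (chromosome 8, 115682942 to 115707794, GRCm38), had 37.8, 133 and 49.3 TPM in Tfh_tumour libraries, against 2.58, 2.84 and 2.10 in Tfh_OTII libraries. Its fold change was 4.19 ± 0.38 (limma adjusted p = 5.4e-05), and Tfh_WT lay between, at 16.7, 11.5 and 20.6 TPM. Prdm1, which encodes BLIMP-1 and opposes BCL6, had 10.2, 41.6 and 18.4 TPM in Tfh_tumour libraries, against 0.95, 0.982 and 1.74 in Tfh_OTII libraries (3.26 ± 0.42). In each of the 3 genes the lowest Tfh_tumour library was above the highest Tfh_OTII library, and the tumour libraries stood in the order of the macrophage marker sum. Tox and Tox2, linked to chronic stimulation and to the follicular fate, rose by 1.49 and 1.57 on the log2 scale.

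On the lower side stood factors of naive and memory-like T cells. Tcf7, which encodes TCF1, had 103, 55.9 and 99.8 TPM in Tfh_tumour libraries, against 162, 209 and 250.1 in Tfh_OTII libraries (-1.28 ± 0.29, limma adjusted p = 0.0091, and 0.051 without Tfh_OTII replicate 3). Lef1, its relative, had 80.2, 39.5 and 69.2 TPM in Tfh_tumour libraries, against 114, 160.1 and 181 in Tfh_OTII libraries (-1.29 ± 0.28). Id3, an inhibitor of E proteins, had 7.69, 5.13 and 6.80 TPM in Tfh_tumour libraries, against 19.1, 26.6 and 24.1 in Tfh_OTII libraries (-1.69 ± 0.30). All 3 were lowest in Tfh_tumour replicate 2, and no Tfh_tumour library reached the Tfh_OTII range. Satb1, a chromatin organiser of T cells, fell most clearly among genes of the naive list, with 85.2, 106 and 83.2 TPM in Tfh_tumour libraries, against 427, 534 and 612 in Tfh_OTII libraries (-2.50 ± 0.29, limma adjusted p = 0.00019). Tfh_WT held 434, 406 and 287 TPM of Satb1. Over the 16 naive and recirculation genes 2 were called higher and 3 lower, beside 8.32% and 9.3% over all genes. On that list 5 were lower without Tfh_OTII replicate 1, and 4 higher with size factors from genes of 10 TPM or more. Il7r, the IL-7 receptor, was one of the 2 called higher in the main fit, at 27.7, 124 and 39.2 TPM in Tfh_tumour libraries, against 10.5, 10.0 and 10.6 in Tfh_OTII libraries (2.21 ± 0.44). Without Tfh_OTII replicate 3, 2 of the 17 follicular factors were called lower.

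Among 18 follicular surface receptors and signalling genes 5 were called higher and 1 lower. Icos, the costimulatory receptor that sustains Tfh cells, had 118, 269 and 118 TPM in Tfh_tumour libraries, against 18.5, 20.9 and 19.6 in Tfh_OTII libraries (2.92 ± 0.33, limma adjusted p = 0.00016). Sh2d1a, which encodes the adaptor SAP, had 118, 79.3 and 74.2 TPM in Tfh_tumour libraries, against 30.5, 38.9 and 31.3 in Tfh_OTII libraries (1.38 ± 0.28). The Tfh_tumour cells had been sorted on CXCR5, PD1 and CD4, so the transcripts of these markers are a description of the gate. Cxcr5 had 12.8, 7.74 and 12.3 TPM in Tfh_tumour libraries, against 4.54, 3.75 and 4.12 in Tfh_OTII libraries. Pdcd1, which encodes PD1, had 22.8, 28.2 and 21.1 TPM in Tfh_tumour libraries, against 8.28, 12.9 and 13.5 in Tfh_OTII libraries. Neither overlapped between the groups, which holds for 37.5% of all genes. Pdcd1 was not called (limma adjusted p = 0.066), and Cxcr5 (0.017) was not without Tfh_tumour replicate 1 or 3 or Tfh_OTII replicate 2 or 3 (0.058 to 0.064). Fewer of the receptors were called without a library: 3 were higher and 0 lower without Tfh_tumour replicate 2, Tfh_OTII replicate 2 or Tfh_OTII replicate 3.

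Il21, the cytokine through which Tfh cells act on B cells (chromosome 3, 37222759 to 37232636, GRCm38), went the other way. It had 8.05, 3.71 and 4.64 TPM in Tfh_tumour libraries, against 46.3, 60.8 and 67.6 in Tfh_OTII libraries, so that the Tfh_OTII mean was 10.6 times the Tfh_tumour mean. The log2 fold change was -3.23 ± 0.43 (limma adjusted p = 0.00041), and Tfh_WT, at 89.1, 80.8 and 57.7 TPM, was high like Tfh_OTII. Both cultures were given IL-21 protein. Of 20 cytokines and growth factors 5 were called higher and 2 lower, against 8.32% and 9.3% over all genes. With size factors from genes of 10 TPM or more 9 were higher, and 1 was lower without any 1 library other than Tfh_tumour replicate 1. Penk, the precursor of enkephalins, had 55.8, 96.3 and 61.3 TPM in Tfh_tumour libraries, against 7.77, 11.4 and 13.1 in Tfh_OTII libraries (2.60 ± 0.37, limma adjusted p = 0.00066). Areg, an epidermal growth factor family ligand, had 4.08, 159 and 32.6 TPM in Tfh_tumour libraries, against 1.48, 1.21 and 0.955 in Tfh_OTII libraries (3.77 ± 0.84). Csf1, the macrophage growth factor, had 7.80, 78.3 and 22.8 TPM in Tfh_tumour libraries, against 1.78, 1.32 and 1.27 in Tfh_OTII libraries (3.38 ± 0.55). The groups overlapped for none of the 3, and all 3 were highest in Tfh_tumour replicate 2 and lowest in replicate 1, the order of the macrophage marker sum, whose part in these values was not tested. Ifng, the Th1 cytokine, had 59.3, 12.4 and 39.8 TPM in Tfh_tumour libraries, against 30.9, 30.4 and 53.2 in Tfh_OTII libraries, and was not called.

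Among other helper and effector genes, Tbx21, which encodes the Th1 factor T-bet, had 12.7, 18.2 and 14.3 TPM in Tfh_tumour libraries, against 2.65, 3.98 and 5.10 in Tfh_OTII libraries (1.73 ± 0.31, limma adjusted p = 0.0024). Of the 25 Th1 and cytotoxic genes tested 7 were called higher and 3 lower, beside 8.32% and 9.3% over all genes. Klrg1, a receptor of terminal effector cells, had 2.94, 63.1 and 13.2 TPM in Tfh_tumour libraries, against 0.625, 0.454 and 0.27 in Tfh_OTII libraries (3.41 ± 0.74). Hopx and Zeb2, both transcriptional regulators of effector T cells, gave 2.32 ± 0.33 and 1.78 ± 0.35. Hopx had 18.4, 44.6 and 22.4 TPM in Tfh_tumour libraries, against 4.53, 4.69 and 4.31 in Tfh_OTII libraries. Zeb2 had 62.3, 172 and 66.4 TPM in Tfh_tumour libraries, against 23.4, 23.6 and 29.2 in Tfh_OTII libraries. Tbx21, Klrg1, Hopx and Zeb2 stood in the order of the macrophage marker sum among the tumour libraries, as did Rora below. The part of macrophages in these values was not tested. The 3 lower calls were all lost without Tfh_tumour replicate 1, Tfh_OTII replicate 2 or Tfh_OTII replicate 3, and 1 was left without Tfh_tumour replicate 3. Rora, a nuclear receptor of helper and innate lymphoid cells, was higher, at 14.4, 34.8 and 18.9 TPM in Tfh_tumour libraries, against 7.09, 4.44 and 6.77 in Tfh_OTII libraries (1.67 ± 0.30).

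Inhibitory receptors and related genes were called higher in 6 of 16 cases and lower in 1, beside 8.32% and 9.3% over all genes. Without Tfh_OTII replicate 2 or 3 they were called higher in 4 cases. Havcr2, which encodes TIM-3, had 6.88, 49.2 and 14.8 TPM in Tfh_tumour libraries, against 1.28, 0.877 and 0.827 in Tfh_OTII libraries (3.22 ± 0.50, limma adjusted p = 0.0011). Tigit had 273, 406 and 250.3 TPM in Tfh_tumour libraries, against 56.1, 113 and 49.6 in Tfh_OTII libraries (2.14 ± 0.37). Tfh_WT held 195, 193 and 271 TPM of Tigit, a range that overlapped Tfh_tumour. Tfh_tumour minus Tfh_WT was 0.48 (limma adjusted p = 0.67), and Tfh_OTII minus Tfh_WT was -1.66 (limma adjusted p = 0.037). TIM-3 is also made by macrophages, and Havcr2 followed their markers among the tumour libraries, whereas Tigit varied less; the part of macrophages was not tested. Of 19 genes for chemokine receptors and migration 9 were called higher and 0 lower, and 5 without Tfh_tumour replicate 3 or without any 1 of the Tfh_OTII libraries. With Tfh_tumour replicate 2 left out, 6 were. Ccr8, a receptor of tumour regulatory T cells, had 20.7, 50.1 and 25.5 TPM in Tfh_tumour libraries, against 5.46, 6.39 and 4.30 in Tfh_OTII libraries (2.29 ± 0.33, limma adjusted p = 0.00077). Cxcr6, a receptor of tissue T cells, had 11.2, 47.3 and 15.5 TPM in Tfh_tumour libraries, against 3.01, 3.14 and 4.13 in Tfh_OTII libraries (2.28 ± 0.44). Cxcr4, which holds cells where CXCL12 is made, gave 2.48 ± 0.38. Ccr2, the receptor of inflammatory monocytes and some T cells, spread widely, at 12.2, 234 and 51.4 TPM in Tfh_tumour libraries, against 2.76, 3.05 and 1.99 in Tfh_OTII libraries. All 4 receptors stood in the order of the macrophage marker sum among the tumour libraries, whose part was not tested.

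Nearly the whole type I interferon response was higher in Tfh_tumour libraries. Of 23 genes 22 were called higher and 0 lower, and Ifit2 was the exception (1.94 ± 0.64, limma adjusted p = 0.053; between 0.0038 and 0.047 in the 6 alternatives that called it). The median log2 fold change was 2.90. By library the list median stood 1.75, 4.71 and 2.73 above the Tfh_OTII mean in Tfh_tumour replicates 1, 2 and 3, so all 3 were above it and replicate 2 most. Promoters of 3 of the members with the largest differences are shown from 250 bases before the gene start to 50 after it, from the sense strand of the gene, 5′ to 3′. Capitals mark GAAANNGAA on either strand, which is the core of the element bound by interferon-activated factors (overlapping matches run together). The sequences are from RefSeq (GRCm38.p6). They are Ifit3 (chr19:34583279-34583578, plus strand), Rsad2 (chr12:26456403-26456702, minus strand) and Isg15 (chr4:156200769-156201068, minus strand).
Ifit3: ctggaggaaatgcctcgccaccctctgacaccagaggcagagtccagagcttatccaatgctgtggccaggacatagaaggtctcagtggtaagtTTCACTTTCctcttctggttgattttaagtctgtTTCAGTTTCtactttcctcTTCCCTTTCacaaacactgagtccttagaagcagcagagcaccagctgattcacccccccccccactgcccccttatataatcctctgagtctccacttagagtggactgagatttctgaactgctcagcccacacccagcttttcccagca
Rsad2: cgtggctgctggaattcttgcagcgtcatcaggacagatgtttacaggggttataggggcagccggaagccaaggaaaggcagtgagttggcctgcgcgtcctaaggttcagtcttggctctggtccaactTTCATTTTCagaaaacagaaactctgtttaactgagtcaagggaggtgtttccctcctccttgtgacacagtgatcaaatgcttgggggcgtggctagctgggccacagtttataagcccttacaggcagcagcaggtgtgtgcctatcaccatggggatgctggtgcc
Isg15: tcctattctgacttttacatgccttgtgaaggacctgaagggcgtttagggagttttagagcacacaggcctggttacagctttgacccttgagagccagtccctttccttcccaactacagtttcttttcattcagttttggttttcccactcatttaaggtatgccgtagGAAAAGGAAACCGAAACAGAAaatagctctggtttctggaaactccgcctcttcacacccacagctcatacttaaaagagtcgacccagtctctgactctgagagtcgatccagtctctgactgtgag
The motif was present in 11 of the 19 promoter windows (57.9%) that RefSeq gives for 16 of the 23 genes, against 2812 of 32851 windows of all genes (8.56%).

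Ifit3, which binds viral RNA with its partners (chromosome 19, 34583531 to 34588731, GRCm38), had 42.4, 433 and 109 TPM in Tfh_tumour libraries, against 1.39, 1.48 and 1.68 in Tfh_OTII libraries (5.66 ± 0.58, limma adjusted p = 9.7e-05). Rsad2, which encodes the antiviral enzyme viperin, had 10.1, 275 and 73.0 TPM in Tfh_tumour libraries, against 1.74, 0.929 and 0.53 in Tfh_OTII libraries (4.93 ± 0.79). Isg15, a ubiquitin-like modifier, had 41.6, 312 and 67.7 TPM in Tfh_tumour libraries, against 2.63, 1.67 and 2.52 in Tfh_OTII libraries (4.90 ± 0.55). In each of the 3 genes even the lowest tumour library, replicate 1, exceeded every Tfh_OTII library by several times. Rtp4, an interferon-induced chaperone, and Ifi205, an interferon-inducible DNA-binding protein, gave 4.94 ± 0.49 and 4.92 ± 0.60. Tfh_WT was low like Tfh_OTII, with 1.79, 2.37 and 3.34 TPM of Ifit3, and 18 of the 23 genes were called higher in Tfh_tumour than in Tfh_WT, while 0 were called higher and 1 lower in Tfh_OTII than in Tfh_WT. Over all genes 1.31% were called higher in the first of these contrasts, and 0.573% higher and 1.38% lower in the second. The list summed to 1175, 5149 and 1693 TPM in Tfh_tumour libraries, against 279, 341 and 384 in Tfh_OTII libraries, the same order of tumour libraries as for the macrophage markers. Without Tfh_tumour replicate 2 again 22 of 23 were called higher, with a median of 2.18, while 5.94% of all genes were called higher, 6.45% lower and 12.4% in all. The part of myeloid cells in these levels was not tested.

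GTPases and MHC class I genes, induced mainly by interferon gamma, rose in part. Of 24 such genes 13 were called higher and 0 lower (median 1.19). Irgm1, an immunity-related GTPase (chromosome 11, 48861968 to 48871683, GRCm38), had 77.9, 114 and 79.0 TPM in Tfh_tumour libraries, against 8.94, 10.1 and 11.9 in Tfh_OTII libraries (3.0 ± 0.30, limma adjusted p = 8.0e-05). Iigp1, of the same family, had 81.7, 90.8 and 66.0 TPM in Tfh_tumour libraries, against 8.83, 12.0 and 12.1 in Tfh_OTII libraries (2.75 ± 0.39). Gbp6, a guanylate-binding protein, had 98.4, 210.1 and 99.0 TPM in Tfh_tumour libraries, against 12.6, 16.2 and 17.3 in Tfh_OTII libraries (2.98 ± 0.30), and its relative Gbp7 gave 2.17 ± 0.48. The highest tumour library was 1.47 times the lowest for Irgm1 and 1.38 times for Iigp1, against 10.2 times for Ifit3 and 7.33 times for Lyz2. The Tfh_OTII and Tfh_WT cultures had received an antibody against IFNγ, whose part in these values was not tested.

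Chemokine genes were called higher in 12 of 15 cases and lower in 0 (median 2.32). Cxcl10, an interferon-induced ligand of CXCR3, had 21.1, 169 and 42.3 TPM in Tfh_tumour libraries, against 0.415, 0.279 and 0.635 in Tfh_OTII libraries (5.25 ± 0.62, limma adjusted p = 0.00021). Cxcl2, which draws neutrophils, had 10.3, 348 and 57.2 TPM in Tfh_tumour libraries, while Tfh_OTII replicates 1 and 2 held 0.361 and 0.148 and replicate 3 was listed at 0 (5.72 ± 0.84, limma adjusted p = 0.00079). Ccl2, which draws monocytes, had 9.58, 124 and 25.0 TPM in Tfh_tumour libraries, against 0.727, 0.211 and 0.178 in Tfh_OTII libraries. All 3 were highest in Tfh_tumour replicate 2. Ccl1, a ligand of CCR8 made by activated T cells, had another order, with 42.1, 9.46 and 22.8 TPM in Tfh_tumour libraries, against 1.18, 0.368 and 0.0872 in Tfh_OTII libraries (3.90 ± 0.54). Tfh_WT held 37.6, 25.6 and 42.6 TPM of Ccl1, a range that overlapped Tfh_tumour, and Tfh_OTII minus Tfh_WT was -4.58 (limma adjusted p = 0.0017).

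A further 3 genes were among the 10 with standard names and the largest increases. Il1b, the inflammatory cytokine of monocytes, had 19.3, 699 and 129 TPM in Tfh_tumour libraries, against 2.81, 1.65 and 0.958 in Tfh_OTII libraries (5.50 ± 1.02, limma adjusted p = 0.0032). Il1rn, its receptor antagonist, had 28.4, 569 and 134 TPM in Tfh_tumour libraries, against 4.10, 2.46 and 0.842 in Tfh_OTII libraries (5.36 ± 0.76). Slfn4, an interferon-induced gene of myeloid cells, had 7.92, 385 and 70.8 TPM in Tfh_tumour libraries, against 1.51, 0.526 and 0.525 in Tfh_OTII libraries (5.12 ± 0.91). All 3 were many times higher in Tfh_tumour replicate 2 than in replicate 1, and replicate 1 was still above the Tfh_OTII range. Lysosomal genes went the same way: 10 of 20 were called higher and 0 lower, but 5 without Tfh_tumour replicate 2, Tfh_OTII replicate 2 or Tfh_OTII replicate 3, and 6 without Tfh_OTII replicate 1. Ctss, cathepsin S of antigen-presenting cells, had 102, 541 and 141 TPM in Tfh_tumour libraries, against 24.6, 31.4 and 35.2 in Tfh_OTII libraries (2.68 ± 0.48), and Lgmn, the protease legumain, gave 3.08 ± 0.47. H2-Aa, an MHC class II chain, had 21.8, 105 and 40.3 TPM in Tfh_tumour libraries, against 2.93, 2.99 and 0.861 in Tfh_OTII libraries (3.92 ± 0.49). Cd74, the invariant chain of MHC class II, had 79.0, 279 and 125 TPM in Tfh_tumour libraries, against 14.1, 15.9 and 16.3 in Tfh_OTII libraries (3.11 ± 0.39). Cd86, a costimulatory ligand, had 16.0, 52.3 and 21.9 TPM in Tfh_tumour libraries, against 2.29, 1.30 and 0.982 in Tfh_OTII libraries (3.48 ± 0.36). Each of these genes was highest in Tfh_tumour replicate 2, as were the macrophage markers, and their part in these values was not tested.

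The spread over the tumour libraries was counted among genes called higher and among genes called lower. Both sets were called on these same tumour levels, and a high replicate 2 favours a higher call. The counts thus describe the called genes and do not test a difference between them. Of 1229 protein-coding genes with standard names that were called higher, 270 were more than 3 times higher in Tfh_tumour replicate 2 than in replicate 1, and in 283 the highest tumour library was under 1.5 times the lowest. Of 1459 such genes called lower, 25 were more than 3 times higher in Tfh_tumour replicate 2 than in replicate 1, and in 764 the highest tumour library was under 1.5 times the lowest. Nt5e, Irgm1 and Socs2 are examples of genes that were higher at an even level. Socs2, a feedback inhibitor of cytokine signalling, had 38.6, 40.9 and 36.5 TPM in Tfh_tumour libraries, against 7.24, 7.49 and 11.6 in Tfh_OTII libraries (2.05 ± 0.25, limma adjusted p = 0.00025).

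**Figure D4:**
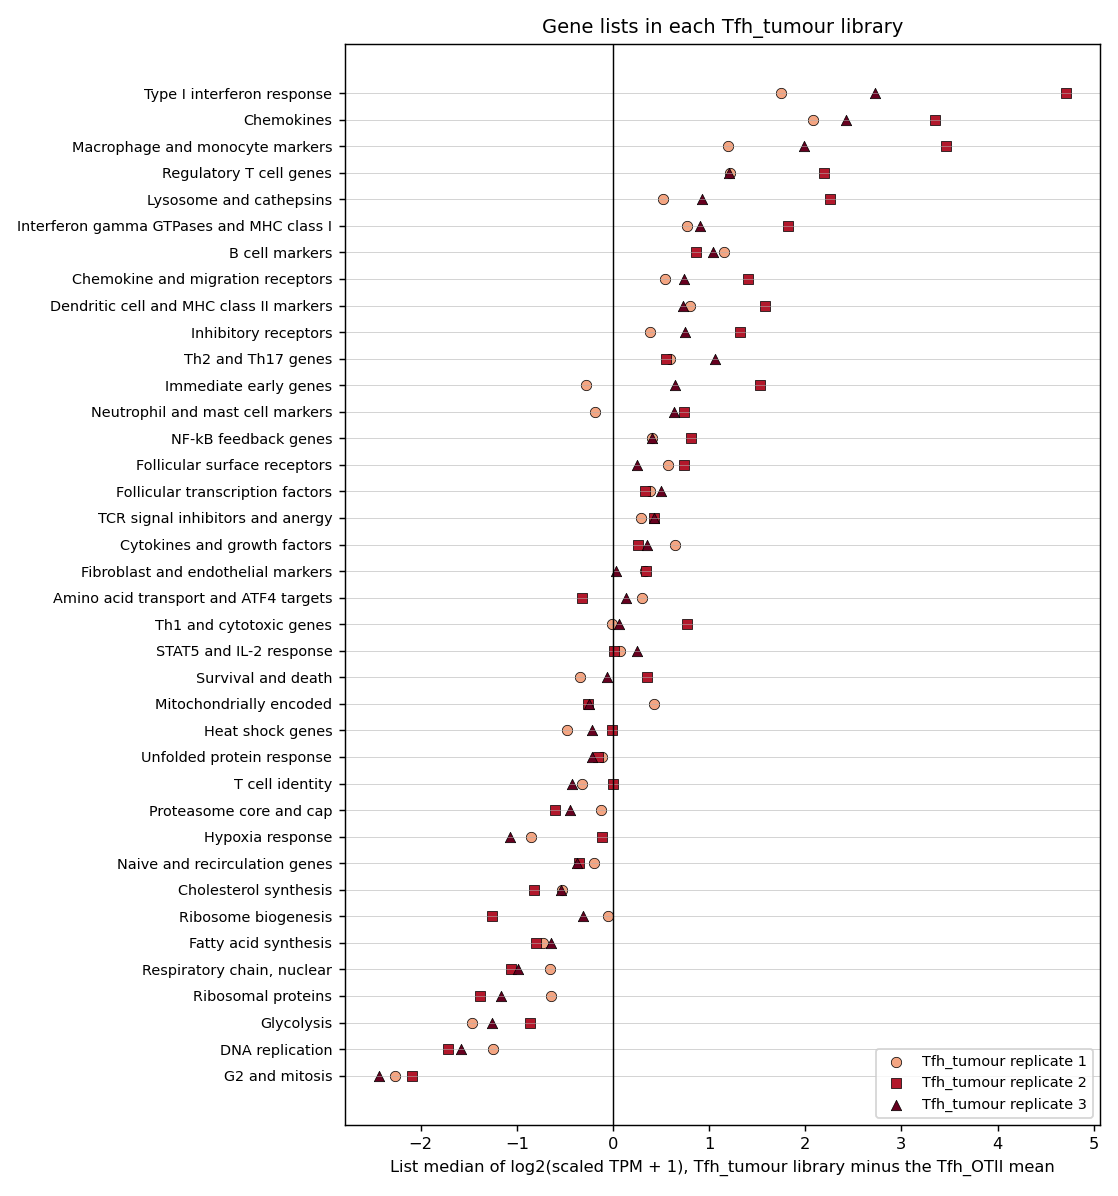
For each gene list with 10 or more members tested, each point is the median over members of the log2 level in 1 Tfh_tumour library minus the Tfh_OTII mean. The 3 libraries lie close together for mitosis genes and far apart for type I interferon, macrophage and lysosome genes, where replicate 2 (the square) is highest.

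Cell division genes fell together. All 25 genes of G2 and mitosis were called lower in Tfh_tumour, with a median log2 fold change of -2.22, while 9.3% of all genes tested were called lower. By library the list median stood at -2.27, -2.08 and -2.43 relative to the Tfh_OTII mean in Tfh_tumour replicates 1, 2 and 3. Promoters of 2 of the members with the largest differences are shown from RefSeq (GRCm38.p6) in the same way, with TTTGAA or TTTAAA on either strand in capitals, the core letters of an element found in promoters of late cell cycle genes. They are Birc5 (chr11:117848987-117849286, plus strand) and Kif11 (chr19:37376132-37376431, plus strand).
Birc5: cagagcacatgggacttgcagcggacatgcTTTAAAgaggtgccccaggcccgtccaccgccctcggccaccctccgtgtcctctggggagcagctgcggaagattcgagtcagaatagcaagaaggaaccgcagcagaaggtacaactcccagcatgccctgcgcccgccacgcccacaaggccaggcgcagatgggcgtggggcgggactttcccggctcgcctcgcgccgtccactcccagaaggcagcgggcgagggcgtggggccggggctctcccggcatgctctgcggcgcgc
Kif11: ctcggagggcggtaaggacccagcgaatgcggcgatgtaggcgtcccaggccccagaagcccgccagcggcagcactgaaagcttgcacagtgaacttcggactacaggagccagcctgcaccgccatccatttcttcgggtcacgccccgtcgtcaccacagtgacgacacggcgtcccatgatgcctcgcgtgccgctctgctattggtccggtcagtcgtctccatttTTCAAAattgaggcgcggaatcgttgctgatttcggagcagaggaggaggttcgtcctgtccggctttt
The letters were present in 17 of the 21 promoter windows (81.0%) given for 21 of the 25 genes, against 9062 of 32851 windows of all genes (27.6%). They were not in the window of Nusap1.

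Birc5, which encodes survivin (chromosome 11, 117849251 to 117855743, GRCm38), had 12.7, 15.5 and 11.9 TPM in Tfh_tumour libraries, against 82.2, 112 and 145 in Tfh_OTII libraries (-2.96 ± 0.26, limma adjusted p = 5.4e-05). The Tfh_OTII mean was 8.47 times the Tfh_tumour mean. Kif11, a spindle motor, had 6.80, 11.3 and 7.29 TPM in Tfh_tumour libraries, against 49.3, 65.0 and 80.8 in Tfh_OTII libraries (-2.81 ± 0.33). Tpx2 and Nusap1, both spindle proteins, had log2 fold changes of -2.86 and -2.77. Stmn1, a regulator of microtubules in dividing cells, had 43.7, 46.5 and 35.0 TPM in Tfh_tumour libraries, against 323, 421 and 489.9 in Tfh_OTII libraries (-3.26 ± 0.43). The Tfh_tumour libraries were not without these transcripts, and they lay close together. Tfh_WT was intermediate for Birc5, at 69.5, 62.1 and 44.0 TPM, and 14 of the 25 genes were called lower in Tfh_tumour than in Tfh_WT and 4 higher in Tfh_OTII than in Tfh_WT. Over all genes 1.27% were called lower in the first of these contrasts and 0.573% higher in the second. The titles give 24 h for Tfh_WT and 48 h for Tfh_OTII, so time in culture and the mouse line cannot be told apart there.

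DNA replication genes were called lower in 18 of 27 cases and higher in 0 (median -1.53), and in 12 without Tfh_OTII replicate 3. Ccne1, which encodes cyclin E1, had 7.94, 5.87 and 6.62 TPM in Tfh_tumour libraries, against 38.5, 48.9 and 52.5 in Tfh_OTII libraries (-2.61 ± 0.29, limma adjusted p = 0.00016). Lig1, the DNA ligase of replication, had 54.2, 55.0 and 54.2 TPM in Tfh_tumour libraries, against 239, 329.7 and 359.6 in Tfh_OTII libraries (-2.46 ± 0.39), and Gins2, a part of the replicative helicase, gave -2.38 ± 0.43. E2f2, a transcription factor of cell cycle entry, had 1.38, 11.6 and 3.46 TPM in Tfh_tumour libraries, against 39.3, 45.8 and 58.7 in Tfh_OTII libraries (-3.24 ± 0.47). Hist2h2aa2, a replication-dependent histone gene with a near-identical neighbour, had 0.859, 73.1 and 62.0 TPM in Tfh_tumour libraries, against 1336, 1250.1 and 2202 in Tfh_OTII libraries (-6.23 ± 1.02). How reads are split between such copies was set by the authors' quantification, so its level is uncertain. The same holds for Hmga1b, a close copy of a chromatin gene, at 16.3, 0.274 and 0.365 TPM in Tfh_tumour libraries, against 29.7, 47.1 and 82.1 in Tfh_OTII libraries.

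**Figure D5:**
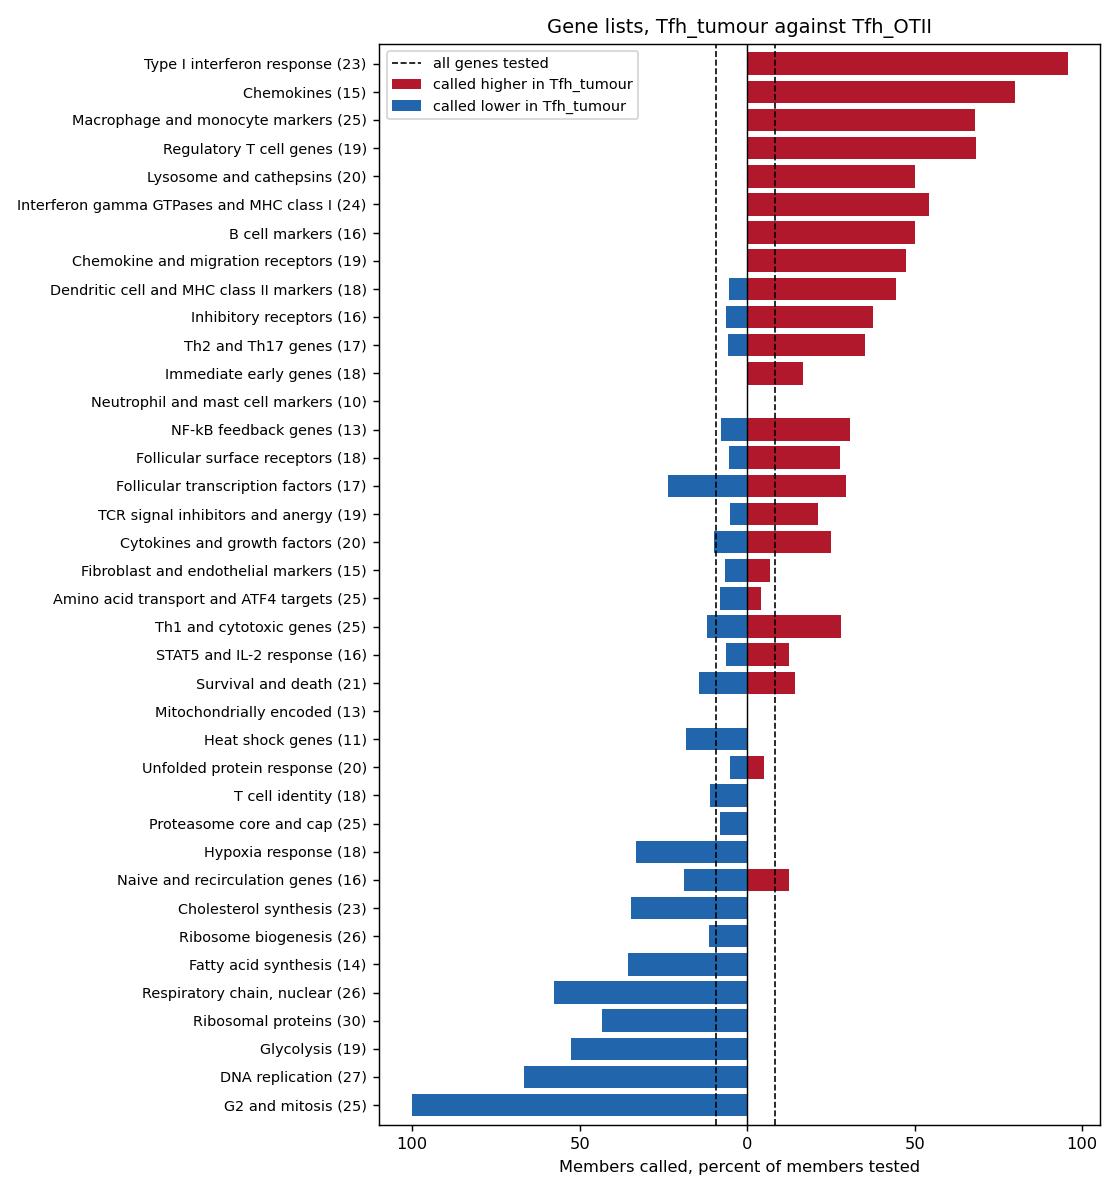
For each gene list with 10 or more members tested (number in brackets), red bars show the percent of members called higher and blue bars the percent called lower in Tfh_tumour against Tfh_OTII. Dashed lines mark the shares over all genes tested, 8.32% higher and 9.3% lower.

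Glycolysis genes were lower in Tfh_tumour libraries: 10 of 19 were called lower and 0 higher (median -1.12). Slc2a3, a glucose transporter, had 12.5, 11.3 and 14.1 TPM in Tfh_tumour libraries, against 53.0, 54.2 and 70.4 in Tfh_OTII libraries (-2.13 ± 0.24, limma adjusted p = 0.00017). Tpi1, triosephosphate isomerase, had 53.0, 106 and 63.8 TPM in Tfh_tumour libraries, against 271, 328 and 386 in Tfh_OTII libraries (-2.18 ± 0.43). Pgk1, which makes ATP in glycolysis, had 139, 154 and 128 TPM in Tfh_tumour libraries, against 411, 508 and 556 in Tfh_OTII libraries (-1.79 ± 0.32), and Eno1, enolase, gave -1.79 ± 0.37. Each Tfh_tumour library was below each Tfh_OTII library for these transcripts. Bsg, which carries lactate transporters to the membrane, had 69.3, 95.9 and 66.4 TPM in Tfh_tumour libraries, against 536, 618 and 718 in Tfh_OTII libraries (-3.01 ± 0.30, limma adjusted p = 7.8e-05). Of 18 hypoxia response genes 6 were called lower and 0 higher, beside 9.3% and 8.32% over all genes. Bnip3, a mitophagy receptor induced by low oxygen, had 13.5, 71.6 and 19.9 TPM in Tfh_tumour libraries, against 105, 142 and 150.1 in Tfh_OTII libraries (-2.23 ± 0.45), and Tfh_tumour replicate 2 was the nearest to the culture. Ankrd37, Bnip3l and Higd1a, further targets of hypoxia-inducible factors, gave -2.22 ± 0.42, -1.86 ± 0.32 and -1.49 ± 0.32. For both lists Tfh_WT was high like Tfh_OTII: 5 glycolysis genes and 5 hypoxia genes were called lower in Tfh_tumour than in Tfh_WT, and 0 of either list were called in Tfh_OTII against Tfh_WT. Over all genes 1.27% were called lower in the first of these contrasts, and 1.95% were called either way in the second. Without Tfh_OTII replicate 3, 5 glycolysis genes were called lower, and 6 without Tfh_OTII replicate 2 or Tfh_tumour replicate 3.

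Lipid synthesis followed the same direction. Scd2, a stearoyl-CoA desaturase that makes monounsaturated fatty acids (chromosome 19, 44293674 to 44306864, GRCm38), had 10.5, 6.75 and 9.37 TPM in Tfh_tumour libraries, against 82.6, 104 and 116 in Tfh_OTII libraries (-3.37 ± 0.46, limma adjusted p = 0.00055). Fads2, a desaturase of polyunsaturated fatty acids, had 0.756, 1.08 and 0.964 TPM in Tfh_tumour libraries, against 4.06, 4.87 and 6.42 in Tfh_OTII libraries (-1.65 ± 0.28), and Slc25a1, which exports citrate for lipid synthesis, gave -1.50 ± 0.28. Neither gene overlapped between the groups. Tfh_WT held 1.31, 1.43 and 1.45 TPM of Fads2. Its Tfh_tumour minus Tfh_WT was -0.31 (limma adjusted p = 0.73), and its Tfh_OTII minus Tfh_WT was 1.33 (limma adjusted p = 0.0297). Of 14 fatty acid synthesis genes 5 were called lower and 0 higher, and 3 without Tfh_tumour replicate 2 or Tfh_OTII replicate 2 or 3. Of 23 cholesterol synthesis genes 8 were called lower and 0 higher (median -0.55), beside 9.3% and 8.32% over all genes. Without any 1 of the same libraries 4 were called lower. Without Tfh_tumour replicate 3, 5 were, as with size factors from genes of 10 TPM or more. Against Tfh_WT, 1 of the 14 fatty acid genes and 0 of the 23 cholesterol genes were called lower in Tfh_tumour, beside 1.27% of all genes. Fdps, which makes farnesyl diphosphate, had 24.1, 13.6 and 21.3 TPM in Tfh_tumour libraries, against 48.4, 61.6 and 68.3 in Tfh_OTII libraries (-1.57 ± 0.32). Fdft1, squalene synthase, had 15.4, 11.2 and 12.9 TPM in Tfh_tumour libraries, against 30.0, 34.2 and 43.3 in Tfh_OTII libraries (-1.37 ± 0.27), and Pmvk, phosphomevalonate kinase, gave -1.58 ± 0.29. The letters CACNCCAC, a sterol response core, were in 2 of the 19 promoter windows (10.5%) given for 16 of 24 genes, against 6.24% of all windows.

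Nuclear genes of the respiratory chain were called lower in 15 of 26 cases and higher in 0 (median -0.92), and ribosomal protein genes in 13 of 30 and 0 (median -1.03). Both counts turned on single libraries. Without Tfh_OTII replicate 3 they were 4 and 1, without Tfh_OTII replicate 2 they were 7 and 3, without Tfh_tumour replicate 2 they were 7 and 3, and without Tfh_tumour replicate 3 they were 7 and 5. Sdha, a subunit of succinate dehydrogenase, had 93.8, 81.6 and 78.1 TPM in Tfh_tumour libraries, against 149.8, 190.5 and 226 in Tfh_OTII libraries (-1.13 ± 0.23, limma adjusted p = 0.0047). Rpl5, a protein of the large ribosomal subunit, had 908, 479 and 620.2 TPM in Tfh_tumour libraries, against 1504, 2057 and 2179 in Tfh_OTII libraries (-1.55 ± 0.31). Ribosomal protein genes have many near-identical processed pseudogenes, so their levels depend on how reads were split. Of the 13 mitochondrially encoded genes limma called 0 either way, and 0 had an unadjusted p under 0.05. Hsp90ab1, a cytosolic chaperone, had 1644, 972 and 1331 TPM in Tfh_tumour libraries, against 3582, 5092 and 5963 in Tfh_OTII libraries (-1.89 ± 0.38). Canx, a chaperone of the endoplasmic reticulum, gave -1.29 ± 0.29. Amino acid transport and ATF4 target genes (1 higher, 2 lower of 25), the unfolded protein response (1 higher, 1 lower of 20) and the proteasome (0 higher, 2 lower of 25) had shares under the 17.6% called over all genes. Both lower ATF4 targets and both lower proteasome genes were lost without Tfh_tumour replicate 2 or 3 or Tfh_OTII replicate 2 or 3, and 4 proteasome genes were lower without Tfh_OTII replicate 1. With size factors from genes of 10 TPM or more, 6 ATF4 targets and 4 genes of the unfolded protein response were called higher. TGATGNAA, the core letters of the ATF4 element, was in 7 of the 24 promoter windows (29.2%) of 22 ATF4 target genes, against 3.97% of all windows.

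A few genes set the OT-II culture apart from both other groups. Rnf43, a ubiquitin ligase that removes Wnt receptors (chromosome 11, 87662722 to 87735539, GRCm38), had 4.90, 4.29 and 4.22 TPM in Tfh_tumour libraries, against 41.0, 48.2 and 61.5 in Tfh_OTII libraries (-3.21 ± 0.29, limma adjusted p = 5.4e-05). Tfh_WT held 3.66, 2.79 and 3.67 TPM, like Tfh_tumour, and Tfh_OTII minus Tfh_WT was 3.54 (limma adjusted p = 6.9e-05). Constant genes of the gamma delta receptor were of the same kind. Tcrg-C2 had 0.666, 0.536 and 0.893 TPM in Tfh_tumour libraries, against 14.1, 19.9 and 26.1 in Tfh_OTII libraries (-3.59 ± 0.39), and Trdc had 1.53, 0.784 and 0.865 in Tfh_tumour libraries, against 7.34, 10.7 and 11.9 in Tfh_OTII libraries (-2.41 ± 0.27). Tcrg-C4 gave -2.90 ± 0.38. Of 8 gamma delta markers tested 5 were called lower in Tfh_tumour and 0 higher, and 3 were called higher in Tfh_OTII than in Tfh_WT. Over all genes those shares were 9.3%, 8.32% and 0.573%. For Tcrg-C2, Trdc and Tcrg-C4 no Tfh_tumour library reached the Tfh_OTII range. Cd8b1, the CD8 beta chain, had 5.16, 7.64 and 4.95 TPM in Tfh_tumour libraries, against 15.0, 15.7 and 18.3 in Tfh_OTII libraries (-1.34 ± 0.23), and 9.34, 7.32 and 7.54 in Tfh_WT libraries. Its Tfh_OTII minus Tfh_WT was 0.94 and was not called (limma adjusted p = 0.065). Unc13a, a vesicle priming protein of neurons, behaved otherwise, at 1.32, 2.57 and 1.53 TPM in Tfh_tumour libraries, 19.4, 21.6 and 23.9 in Tfh_OTII libraries and 16.5, 11.7 and 9.54 in Tfh_WT libraries.

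B cell markers were higher in the tumour libraries, with 8 of 16 called higher and 0 lower, beside 8.32% and 9.3% over all genes. The count called higher was 4 without Tfh_OTII replicate 3 and 5 without Tfh_tumour replicate 1. The 16 markers summed to 207, 158 and 167 TPM in Tfh_tumour libraries, against 64.6, 61.0 and 65.9 in Tfh_OTII libraries and 120.1, 107 and 113 in Tfh_WT libraries. Igkc, the kappa light chain constant gene, had 40.5, 22.2 and 29.0 TPM in Tfh_tumour libraries, against 6.60, 5.98 and 9.19 in Tfh_OTII libraries (1.91 ± 0.30, limma adjusted p = 0.0012), and Cd22, an inhibitory receptor of B cells, gave 1.93 ± 0.34. Tfh_WT held 29.2, 23.0 and 18.6 TPM of Igkc, a range that overlapped Tfh_tumour. Tfh_tumour minus Tfh_WT was 0.34 for Igkc (limma adjusted p = 0.74) and 0.36 for Cd22 (limma adjusted p = 0.76). Tfh_OTII minus Tfh_WT was -1.57 for both (limma adjusted p = 0.0197 and 0.0341). Tfh_tumour replicate 2, the highest for macrophage markers, was the lowest of the 3 for Igkc. Among survival genes Fas, a death receptor, had 20.3, 20.1 and 16.9 TPM in Tfh_tumour libraries, against 34.6, 43.3 and 52.4 in Tfh_OTII libraries (-1.13 ± 0.22, limma adjusted p = 0.0047). Bcl2a1a, a survival factor with near-identical copies, had 8.36, 22.3 and 7.69 TPM in Tfh_tumour libraries, against 1.38, 0.355 and 0.786 in Tfh_OTII libraries (2.79 ± 0.49), a level that depends on how reads were split between the copies. The groups differ in tissue, receptor, antigen, stimulation and time at once, and these cannot be told apart.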

How the data were processed

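Total RNA was sequenced with ribosomal depletion and a stranded kit, per the labels' protocols. The authors deposited TPM per gene symbol, and the submitters' processing notes name kallisto and mm10. Versions and the strand setting are not given in the sources used here. TPM sums to 1000000 in each library, so it holds shares, and depth is unknown. Of 35492 symbols 34699 matched GENCODE M21 (GRCm38), and 993 symbols of chromosome Y were left out.

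TPM was divided by median-of-ratios size factors. Genes with a mean of 1 scaled TPM or more in Tfh_tumour or Tfh_OTII were fitted with limma 3.58.1 in R 4.3.3 (log2 of scaled TPM plus 1, all 12 libraries, a mean per group, intensity trend), and p-values were Benjamini-Hochberg adjusted. The code was tested on simulated data. Named genes were drawn from the 10 largest called changes each way (5 TPM or more, no overlap, standard names), up to 4 leading called members of each list each way, and a few label genes; S100a9, C1qa and Ifit2 were added after their values were seen. Alternatives were another scaling, pseudocount, filter, sample set, trend and block, and each library left out. The members and gene lists were chosen with earlier results of these data known. Same-numbered libraries did not deviate together (correlations of -0.0389, -0.0233 and -0.0782).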

Additional observations from a re-analysis of the deposited data

Results flagged for a closer look

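Y-linked transcripts, which the comparison leaves out, set the groups apart. Ddx3y, an RNA helicase of chromosome Y, had 1.69, 1.58 and 0.936 scaled TPM in Tfh_tumour libraries, against 20.6, 29.0 and 35.6 in Tfh_OTII libraries, where the mean was 28.4. Eif2s3y, a translation factor subunit of chromosome Y, had 0.348, 0.442 and 0.966 scaled TPM in Tfh_tumour libraries, against 34.8, 61.6 and 82.0 in Tfh_OTII libraries, where the mean was 59.4. Uty, another Y-linked gene, went the other way, with 270, 124 and 103 scaled TPM in Tfh_tumour libraries, against 30.3, 28.6 and 26.8 in Tfh_OTII libraries. Kdm5d, a histone demethylase of chromosome Y, had 16.7, 12.0 and 16.7 scaled TPM in Tfh_tumour libraries, against 27.1, 21.7 and 21.4 in Tfh_OTII libraries. Gm26992, a gene model on chromosome X that lies across the Xist locus on the opposite strand, had 158, 157 and 153 scaled TPM in Tfh_tumour libraries, against 1.73 in Tfh_OTII replicate 1, while Tfh_OTII replicates 2 and 3 were listed at 0. The strand setting of the counting is not given in the sources used here, so reads of the 2 strands cannot be told apart. The labels do not give the sex of the mice, and a difference in sex and the difference between the groups cannot be told apart. Ddx3y and Eif2s3y were flagged because they are outside the comparison and their Tfh_OTII levels lie above those of the Tfh_WT libraries.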

How the results depend on the processing

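No gene called in the comparison changed sign in any of the 17 alternatives. The count of 3565 calls stayed within 1.5 times except without Tfh_OTII replicate 2 (2218) and without Tfh_OTII replicate 3 (1719). With 1 library left out the counts ran from 1719 to 3399, where the remaining pair is assumed to vary like the other groups. The other alternatives gave 2813 (no filter) to 4956 (without Th1_WT). Replicate numbers did not pair the libraries, and a replicate block gave 3049 calls. Of 1845 values of 109 named genes, 1823 kept direction and side of the threshold, 5 lost the call (Tcf7 and Cxcr5), 13 gained it (Pdcd1, S100a9 and Ifit2) and 4 changed sign. The sign changes were of genes not called: Cd4 with size factors from genes of 10 TPM or more (0.0908), and Ifng with that scaling (0.0308) and, over single libraries left out, between -0.698 and 0.389; the cause was not tested. Counts within lists and marker sums under these settings were chosen after seeing the data, and no ratio of marker sums changed direction. Depth is unknown, and 3 libraries a group limit what low genes can show.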

Other observations

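Several gene models without a standard name held large shares of the transcripts, and they were picked after their values were seen. Gm10800, a predicted gene on chromosome 2, had 107739, 16917 and 74709 scaled TPM in Tfh_tumour libraries, against 1878, 1509 and 455 in Tfh_OTII libraries, 16734, 71749 and 41595 in Tfh_WT libraries and a mean of 600975 in Th1_WT. Its neighbour Gm10801 had 17242, 1956 and 9506 scaled TPM in Tfh_tumour libraries, against 397, 251 and 91.7 in Tfh_OTII libraries. Gm3699, a processed pseudogene, had 2.47 scaled TPM in Tfh_tumour replicate 1 and was listed at 0 in replicates 2 and 3, against 3887, 5467 and 6805 in Tfh_OTII libraries. Of 3226 processed pseudogenes tested, 206 were called higher and 296 lower, and how reads were split between them and their parent genes is not given in the sources used here.

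Of the 3565 genes called, 3222 had a Tfh_WT mean between the Tfh_tumour and Tfh_OTII means. These genes were called for a gap between those means, and a wide gap leaves more room for another group to fall inside it. The share over all genes tested was not counted, so this count does not test whether Tfh_WT is intermediate. The remaining lists are given as counts, beside the 8.32% called higher and 9.3% called lower over all genes. Among 13 NF-kB feedback genes 4 were called higher and 1 lower. The higher count was 1 without Tfh_tumour replicate 2 or Tfh_OTII replicate 1 or 2, 2 without any 1 of the other libraries, and 7 with size factors from genes of 10 TPM or more. Among 18 immediate early genes 3 were called higher, or 7 without Tfh_tumour replicate 1. Of 21 survival and death genes 3 were called higher and 3 lower. The higher count was 2 without Tfh_tumour replicate 3 and 1 without any 1 of the other libraries, and the lower count was 1 without Tfh_tumour replicate 3 or Tfh_OTII replicate 2 or 3. Of 19 TCR signal inhibitors and anergy genes 4 were called higher and 1 lower, and 9 higher with size factors from genes of 10 TPM or more. Of 17 Th2 and Th17 genes 6 were called higher and 1 lower. Of 16 STAT5 and IL-2 response genes 2 were called higher and 1 lower, a share near the background, and 6 were higher and 0 lower with size factors from genes of 10 TPM or more. Of 26 ribosome biogenesis genes 3 were called lower, a share near the background, and 5 without Tfh_tumour replicate 1, 1 without Tfh_tumour replicate 2 or Tfh_OTII replicate 2 and 0 without Tfh_OTII replicate 3. Of 11 heat shock genes 2 were called lower, and 1 without any 1 library other than Tfh_OTII replicate 1. Of 15 fibroblast and endothelial markers 1 was called higher and 1 lower, as of 7 NK and CD8 cell markers, and of 7 erythroid and platelet markers 1 was called higher.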
